A study of Mus musculus with 6 samples.

Results

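The genes described here are 9 neuronal genes known as targets of the repressor REST: Stmn3, Syn1, Chga, Chgb, Kcnh2, Celsr3, Ina, L1cam and Stmn2. They were taken by name from a list that was made with earlier results of these data known, so counts over them are descriptions. All 9 were among the 11736 genes with a value in the deposited tables. RNA was measured in somatic cells of XY (male) C57BL/6 mouse gonads at embryonic day E11.5. One group of 3 libraries carries the genotype Cdyl-Het with Nr5a1-hCD271, and the other group of 3 carries Cdyl-KO with Nr5a1-hCD271, so the Nr5a1-hCD271 allele was present in both. Cells displaying hCD271 were collected with magnetic beads, a step that depends on where the Nr5a1-hCD271 allele is active. There were no wild-type libraries, so each value below compares the labelled knockout with the labelled heterozygote. The labels do not state the form of the Cdyl mutation, nor whether a library came from 1 embryo, a pool or a litter. The p-values therefore measure the spread between these libraries, which may be technical.

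REST is a zinc-finger protein that binds a DNA element called RE1 near many neuronal genes and keeps them silent outside neurons. It works by recruiting corepressors, among them CoREST (Rcor1), the demethylase Lsd1 (Kdm1a), histone deacetylases and the H3K9 methyltransferase G9a (Ehmt2). CDYL is a chromodomain protein that reads methylated histone H3 and has been described as a bridge between REST and G9a. The comparison asks how these REST targets stood in gonadal somatic cells, which are not neurons, when Cdyl was deficient. REST binding itself was not measured, so the name REST-repressed comes from what is known of the genes and not from these libraries.

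Promoter sequence was available for 8 of the 9 genes, as RefSeq windows on GRCm38.p6 from 250 bases before to 50 bases after the annotated start. For Stmn2 no window was used here, and the windows of Kcnh2 and L1cam lie at starts 22013 and 15271 to 15315 bases inside the gene as annotated by GENCODE, so the region before the first annotated start of these genes was not searched. The Chgb and Syn1 starts lie 364 and 86 bases inside their genes. The Celsr3 start used, 108826045, lies before the GENCODE start of that gene, 108826320. Each window was searched on both strands for an RE1-like core, CAGCACC and GGACAG with 2 free bases between them, allowing 2 mismatches over the 13 letters compared. A match was found for 2 of the 8 genes with a window, Syn1 and Celsr3, with 1 mismatch each. Among all 27025 genes with a window, 2.22% held such a match. The stretches around both matches are printed because they place an RE1-like core before the RefSeq start of a gene that was higher in Cdyl-KO. Whether the core bears on the rise was not tested. The stretch before Stmn3, the member with the largest change, is printed because its window held no match closer than 4 mismatches. Each runs 5′ to 3′ on the gene's own strand, and capitals mark the RE1-like core with its free bases and mismatch.
Syn1, chrX:20921069-20921168, minus strand, bases -250 to -151 from the start: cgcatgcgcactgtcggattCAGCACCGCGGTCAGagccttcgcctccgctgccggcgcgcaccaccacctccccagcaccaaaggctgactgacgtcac
Celsr3, chr9:108825870-108825969, plus strand, bases -175 to -76 from the start: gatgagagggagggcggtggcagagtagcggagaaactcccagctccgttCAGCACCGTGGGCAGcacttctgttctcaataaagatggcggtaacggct
Stmn3, chr2:181314501-181314600, minus strand, bases -100 to -1 from the start: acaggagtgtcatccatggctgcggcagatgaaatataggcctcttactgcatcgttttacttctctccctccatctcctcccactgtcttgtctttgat
The Syn1 stretch also holds TGACGTCA, the cAMP response element, with its first base at -159. The same 8 letters were found in the Chgb window and for 2.03% of all genes with a window. A match is a description of letters and says nothing of binding, and RE1 elements that lie in introns or farther upstream were outside these windows.

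The deposited values appear to be RPKM (reads scaled to transcript length and library size) and were further scaled between libraries. The library totals implied by the values ran from 34.6 to 45.2 M reads. For the 9 genes, 49 of the 54 values came out as whole reads, and 42 of these were even, so the number of separate fragments may be lower than the reads given below. Cdyl itself had 7.77, 8.06 and 8.22 scaled RPKM in Cdyl-Het against 6.77, 6.93 and 7.07 in Cdyl-KO (log2 change -0.19, limma adjusted p = 0.0702). A value for the whole gene does not show whether a deleted part is read, so it checks the labels only weakly. Of the 11 listed markers of gonadal somatic cells 9 had values, and 3 of these rose in Cdyl-KO: Emx2 (log2 change 0.57, limma adjusted p = 0.0129), Nr0b1 (0.50, 0.00907) and Lhx9 (0.46, 0.0273). Nr5a1, Wt1 and Gata4, with group means of 70.5 to 85.8 scaled RPKM, did not pass. In bulk RNA, fewer cells of a kind and less RNA per cell cannot be told apart.

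Of the 9 genes, 5 rose in Cdyl-KO (Stmn3, Syn1, Chga, Kcnh2 and Celsr3), none fell and 4 did not pass the test (limma on log2(scaled RPKM + 1), adjusted over all genes, threshold 0.05). Over all 11736 genes, 4.67% were higher and 2.83% lower by the same test, 7.50% in all. The median log2 change of the 9 genes was 0.61, against 0.00 over all genes. The 3 Cdyl-KO values all lay above the 3 Cdyl-Het values for 7 of the 9 genes and all below them for Chgb, against 17.0% and 14.5% of all genes (31.6% together). Stmn2 was the only member whose groups overlapped. At an unadjusted p under 0.05, 7 members were higher and 1 was lower, against 14.2% and 11.2% of all genes. Without Cdyl-KO replicate 2 or 3, 3 of the 9 rose (Stmn3, Syn1 and Kcnh2).

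A selection of genes by level bears on these counts. No gene of the tables had a Cdyl-KO mean under 1 scaled RPKM, while 120 had a Cdyl-Het mean under 1. Genes with a low Cdyl-KO level are therefore absent, and a fall to a mean under 1 could not be seen. The 5 members with a Cdyl-Het mean under 1 (Syn1, Celsr3, Ina, L1cam and Stmn2) are listed through their Cdyl-KO level. Among all 120 such genes, 25.8% were higher by the test and 53.3% had groups apart in that direction. The other 4 members had a Cdyl-Het mean of at least 1, where 4.45% of genes were higher by the test. Of these 4, Stmn3, Chga and Kcnh2 rose and Chgb did not pass. Of the 5 with the lower mean, 2 rose (Syn1 and Celsr3) and 4 had groups apart, beside the 25.8% and 53.3% of the 120 genes.

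**Figure D1:**
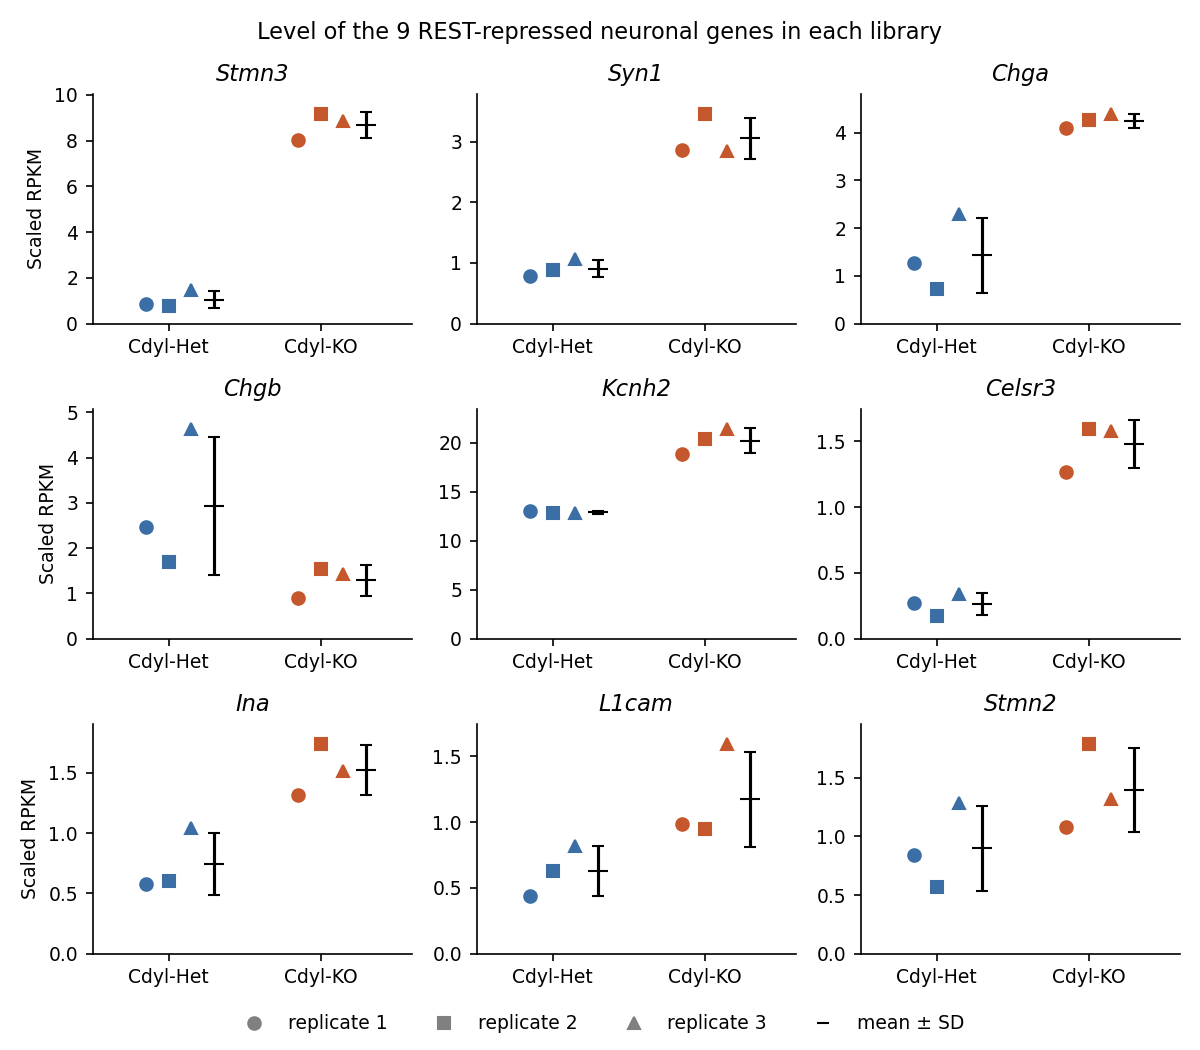
Scaled RPKM (y axis, from 0, with its own scale for each gene) of the 9 genes in the 3 Cdyl-Het (blue) and 3 Cdyl-KO (orange) libraries, with marker shapes for the replicates and bars for mean ± SD. Stmn3 goes from a mean of 1.04 to 8.67, Chgb is the one gene with all Cdyl-KO values below the Cdyl-Het values, and only in Stmn2 do the groups overlap.

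**Figure D2:**
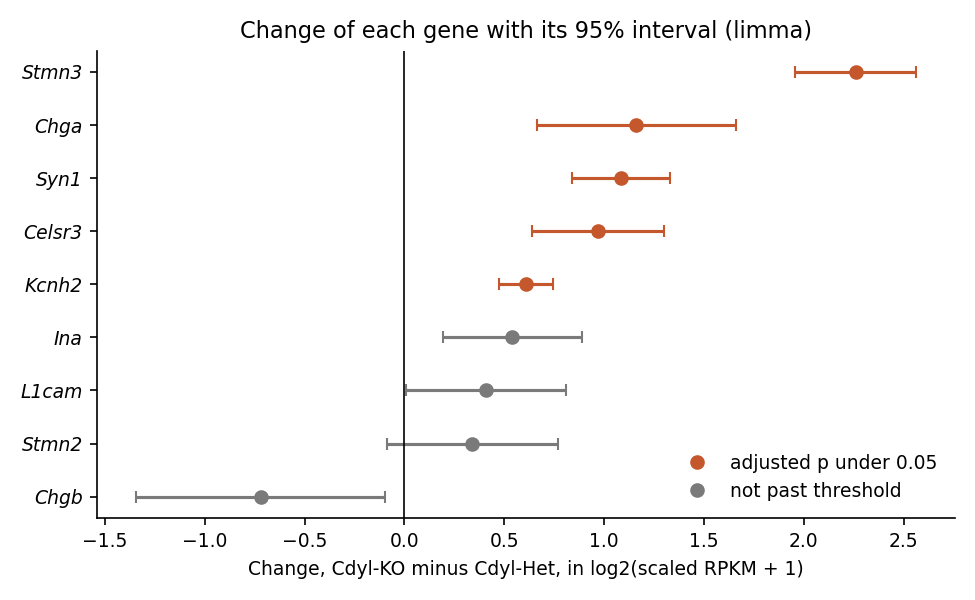
Log2 change of each gene, Cdyl-KO minus Cdyl-Het on the log2(scaled RPKM + 1) scale (x axis), with its 95% interval from limma, in orange where the adjusted p is under 0.05. The 5 called genes run from 0.61 (Kcnh2) to 2.26 (Stmn3), and the interval of Stmn2 crosses 0.

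The stathmins bind tubulin and make microtubules less stable. Stmn3, also called SCLIP, is a neuronal stathmin (chr2:181306459-181314500, minus strand, mm10) and showed the largest change of the set. The Cdyl-Het libraries held 0.876, 0.778 and 1.46 scaled RPKM of it, and the Cdyl-KO libraries held 8.02, 9.14 and 8.86. The means were 1.04 ± 0.371 and 8.67 ± 0.582 (SD, n = 3 each), a ratio of 8.35, and the lowest Cdyl-KO value was still 5.48 times the highest Cdyl-Het value. The log2 change was 2.26 (SE 0.13, 95% interval 1.96 to 2.56, limma adjusted p = 0.000367), rank 2 of all genes by log2 rise and rank 10 by p. The values stood for 36 to 78 reads per Cdyl-Het library and 380 to 432 per Cdyl-KO library.

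Stmn2, or SCG10, is the neuronal stathmin of growth cones (chr3:8509360-8561606, plus strand). It had 0.844, 0.570 and 1.28 scaled RPKM in Cdyl-Het against 1.08, 1.79 and 1.32 in Cdyl-KO. The third Cdyl-Het library lay above the first Cdyl-KO library, so the groups overlapped. The log2 change of 0.34 did not pass (95% interval -0.09 to 0.77, limma adjusted p = 0.290), and it was 0.21 without Cdyl-Het replicate 2. Within each library, Stmn3 stood at 1.04, 1.37 and 1.14 times Stmn2 in Cdyl-Het but at 7.44, 5.12 and 6.71 times in Cdyl-KO. This ratio does not depend on the scaling between libraries. Its groups were apart, which follows from the values of both genes and adds nothing to the Stmn3 call. The exact two-sided permutation p of 0.1 is the smallest that 3 against 3 allows. The broadly expressed Stmn1 was far higher in level, 119 ± 12.2 in Cdyl-Het and 157 ± 5.27 in Cdyl-KO (log2 change 0.40, limma adjusted p = 0.0292). The Stmn1 call was lost with deposited values left unscaled (adjusted p = 0.0621) and in 5 of the 6 fits without 1 library.

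Ina, the gene of alpha-internexin, encodes an intermediate filament of young neurons (chr19:47014698-47025327, plus strand). Its values were 0.580, 0.606 and 1.04 scaled RPKM in Cdyl-Het against 1.32, 1.74 and 1.52 in Cdyl-KO. All Cdyl-KO libraries were above all Cdyl-Het libraries, and the means were 0.742 ± 0.258 and 1.52 ± 0.209 (SD, n = 3 each). The log2 change of 0.54 (95% interval 0.20 to 0.89) did not pass (limma adjusted p = 0.0714, against 0.0075 unadjusted). It passed in limma with quantile normalization (adjusted p = 0.0215), without the trend (0.0447), with robust moderation (0.0490) and in voom on the implied reads (0.0126). Of its 3240 exon bases, 456 overlap exons of Nt5c2 on the opposite strand, and no source used here gives the strand setting of the counting. Among the filament genes of the same family, Nefm, the medium neurofilament, rose from 5.85, 5.66 and 6.53 scaled RPKM in Cdyl-Het to 11.7, 12.1 and 10.8 in Cdyl-KO (log2 change 0.84, limma adjusted p = 0.00195). Nefl, Nefh, Nes and Vim did not pass.

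Syn1 encodes synapsin I, which tethers synaptic vesicles and is a textbook REST target (chrX:20860511-20921004, minus strand). The Cdyl-Het libraries had 0.788, 0.878 and 1.06 scaled RPKM and the Cdyl-KO libraries 2.86, 3.45 and 2.85. The groups were well apart, with means of 0.909 ± 0.139 and 3.05 ± 0.341 (SD, n = 3 each), a ratio of 3.36. The log2 change was 1.09 (SE 0.10, 95% interval 0.84 to 1.33, limma adjusted p = 0.00346). Of its exon bases, 9 overlap exons of Araf. Its promoter window is the one printed above with an RE1-like core starting at -230.

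Chga and Chgb encode chromogranins, acidic proteins that pack the dense-core granules of neuroendocrine cells and neurons. Chga rose, while the Chgb values were lower in Cdyl-KO without passing the test. Chga (chr12:102554969-102565028, plus strand) had 1.26, 0.730 and 2.29 scaled RPKM in Cdyl-Het against 4.09, 4.26 and 4.38 in Cdyl-KO. The Cdyl-KO values were close together while the highest Cdyl-Het value was several times the lowest. Its log2 change was 1.16 (SE 0.21, 95% interval 0.66 to 1.66, limma adjusted p = 0.0231), and the means were 1.43 ± 0.793 and 4.24 ± 0.145 (SD, n = 3 each). The Chga call was lost without Cdyl-Het replicate 1 (adjusted p = 0.0589) and without Cdyl-KO replicate 1 (0.0684), 2 (0.0655) or 3 (0.0665), with a log2 change of 1.13 to 1.18 in these fits.

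Chgb (chr2:132781278-132795079, plus strand) had 2.46, 1.68 and 4.62 scaled RPKM in Cdyl-Het against 0.893, 1.54 and 1.43 in Cdyl-KO. Every Cdyl-KO value lay below every Cdyl-Het value, and Cdyl-Het replicate 3 was the highest by far. The log2 change of -0.72 (95% interval -1.34 to -0.10) did not pass (limma adjusted p = 0.145, against 0.0290 unadjusted). Without Cdyl-Het replicate 3 the log2 change was -0.42. In voom on the implied reads it was -1.14 with an adjusted p of 0.0323. Within a library, Chga stood at 0.513, 0.434 and 0.495 times Chgb in Cdyl-Het but at 4.58, 2.76 and 3.07 times in Cdyl-KO. The Cdyl-Het ratios lay close together, 0.481 ± 0.0418, although both genes varied among these libraries, and the Cdyl-KO mean was 3.47 ± 0.976. The exact two-sided permutation p was 0.1, the smallest possible, and 0.1 after adjustment over the 4 ratios of this kind. Of the other genes on the granin list, Scg5 and Gnas had values and did not pass. The Gnas value covers the whole gene and cannot be read as that of a granin product.

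Kcnh2 encodes the ERG potassium channel, which is also known from the heart (chr5:24319589-24351604, minus strand). It was the most highly expressed of the 9 genes. Its values were 13.0, 12.9 and 12.8 scaled RPKM in Cdyl-Het against 18.9, 20.4 and 21.4 in Cdyl-KO. The Cdyl-Het values were almost equal and the Cdyl-KO values all higher, with means of 12.9 ± 0.125 and 20.2 ± 1.25 (SD, n = 3 each). The ratio of 1.57 was the smallest among the called members, with a log2 change of 0.61 (SE 0.06, 95% interval 0.47 to 0.74, limma adjusted p = 0.0034). It rests on 2284 to 4338 reads per library. Its relatives Kcnh1 and Kcnh6 did not pass (log2 changes -0.21 and 0.24, limma adjusted p = 0.328 and 0.279).

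Celsr3 encodes an atypical cadherin of axon guidance (chr9:108826320-108852969, plus strand). Its values were 0.273, 0.173 and 0.342 scaled RPKM in Cdyl-Het against 1.27, 1.59 and 1.58 in Cdyl-KO. It was the lowest of the 9 genes in Cdyl-Het, and all Cdyl-KO values were above 1. The means were 0.263 ± 0.0850 and 1.48 ± 0.182 (SD, n = 3 each), a ratio of 5.63 in scaled RPKM, while the pseudocount holds the log2 change at 0.97 (SE 0.14, 95% interval 0.64 to 1.30, limma adjusted p = 0.0118). The Celsr3 call was lost without Cdyl-KO replicate 2 (adjusted p = 0.0527) or 3 (0.0551). The relatives Celsr1 and Celsr2 had log2 changes of -0.16 and -0.02 and did not pass (limma adjusted p = 0.119 and 0.887). Celsr3 stood at 0.0494 times Celsr1 in Cdyl-Het and at 0.320 times in Cdyl-KO (group means of the ratio within a library, 3 libraries each, exact two-sided permutation p = 0.1).

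L1cam encodes a cell adhesion molecule of axons (chrX:73853778-73896105, minus strand). It had 0.440, 0.628 and 0.821 scaled RPKM in Cdyl-Het against 0.983, 0.949 and 1.59 in Cdyl-KO. The groups did not overlap, but the closest values were 0.821 and 0.949. Of its 7347 exon bases, 100 overlap exons of Arhgap4. The log2 change of 0.41 (95% interval 0.01 to 0.81) did not pass (limma adjusted p = 0.188, against 0.0466 unadjusted), and it passed in voom on the implied reads (log2 change 0.87, adjusted p = 0.0261).

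**Figure D3:**
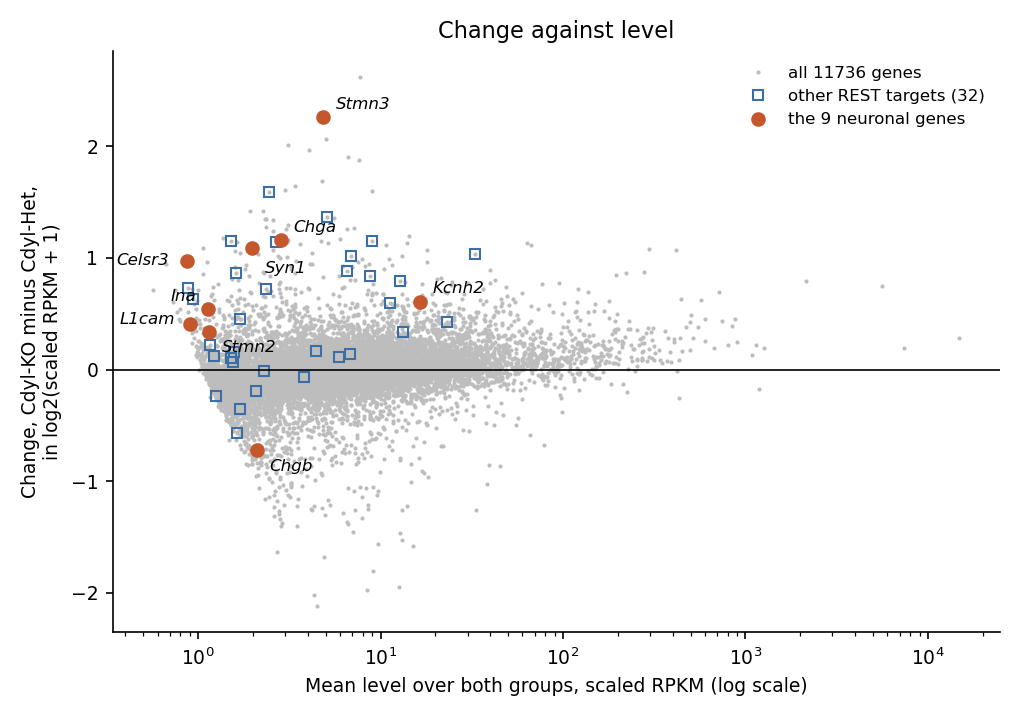
Log2 change, Cdyl-KO minus Cdyl-Het (y axis), against the mean scaled RPKM over both groups (x axis, log scale), for all 11736 genes (grey), the 32 other REST targets (blue squares) and the 9 genes (orange). Stmn3, at 2.26, is near the top of all genes, and 8 of the 9 genes lie at mean levels under 5, where the spread of all genes is wide.

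Most of the members shared the same highest library within Cdyl-Het. Cdyl-Het replicate 3 was the highest of the Cdyl-Het libraries for 8 of the 9 genes, the exception being Kcnh2. It was the highest for 33.5% of all genes. It was also the highest for 20 of the 32 other REST targets and 5 of the 7 neuron and neural crest markers described below, so this is not particular to the 9. Within Cdyl-KO, replicate 1 was the highest for none of the 9, replicate 2 for 6 and replicate 3 for 3. The summed level of the 9 genes was 20.6, 18.9 and 25.7 scaled RPKM over the Cdyl-Het libraries and 39.4, 44.8 and 44.9 over the Cdyl-KO libraries. The sum is led by Kcnh2. The listed markers of neurons and neural crest cells also summed highest in Cdyl-Het replicate 3 among the Cdyl-Het libraries (33.2, 33.2 and 38.9), and their part in this was not tested.

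**Figure D4:**
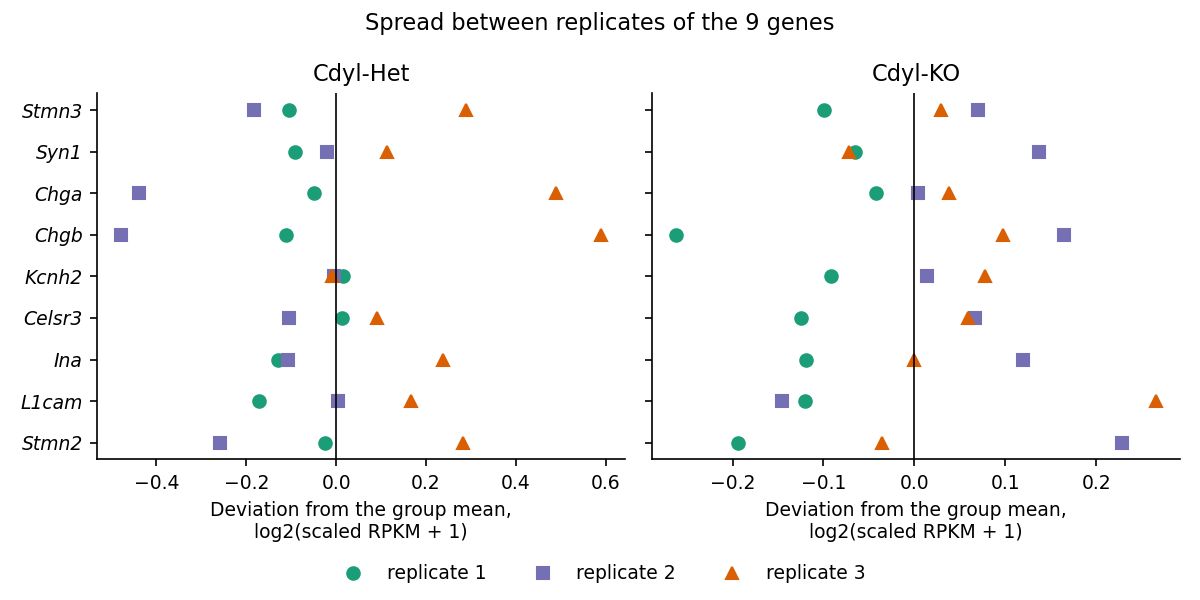
Deviation of each library from its group mean on the log2(scaled RPKM + 1) scale (x axis, with a different range in each panel), for the 9 genes (y axis), Cdyl-Het at left and Cdyl-KO at right, with a colour and shape for each replicate. Replicate 3 of Cdyl-Het is farthest to the right for 8 genes, and within Cdyl-Het Chga and Chgb deviate most.

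A wider list of 70 further genes known as REST targets was drawn up from general knowledge, and 32 of them had values. Earlier results of these data were known when it was drawn up, so its counts are no independent support. In Cdyl-KO, 17 of the 32 rose, none fell and 15 did not pass (limma, adjusted over all genes), beside the 4.67% and 2.83% of all genes given above. At an unadjusted p under 0.05 there were 18 higher and 1 lower, beside 14.2% and 11.2% of all genes. Without Cdyl-KO replicate 3, 11 rose. Their median log2 change was 0.44, and 6 of the 32 had a Cdyl-Het mean under 1. The 6 with the smallest p were Cplx2, Syt7, Calb1, Nefm, Gprin1 and Ptprn. Cplx2, a complexin that clamps vesicle fusion, had 4.20, 4.17 and 4.59 scaled RPKM in Cdyl-Het against 8.88, 8.98 and 8.58 in Cdyl-KO (log2 change 0.88, limma adjusted p = 0.000604). Syt7, a calcium sensor of vesicle release, rose by 1.02 (adjusted p = 0.000733), and the calcium buffer Calb1 by 1.15 (adjusted p = 0.00124). Ptprn, a dense-core vesicle protein like the chromogranins, had 0.638, 0.451 and 1.12 scaled RPKM in Cdyl-Het against 4.65, 3.69 and 4.22 in Cdyl-KO (log2 change 1.59, adjusted p = 0.00346). Gprin1, a neurite outgrowth protein, rose by 1.37 (adjusted p = 0.0031). The most highly expressed of the 15 that did not pass were Dlg4, the postsynaptic scaffold PSD-95 (6.41 ± 0.527 and 7.16 ± 0.290, SD, n = 3 each, limma adjusted p = 0.249), and Dpysl3 (5.67 ± 0.563 and 6.20 ± 0.733, limma adjusted p = 0.516). In the wider list as in the 9 genes, members past the test stood beside members that did not pass.

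**Figure D5:**
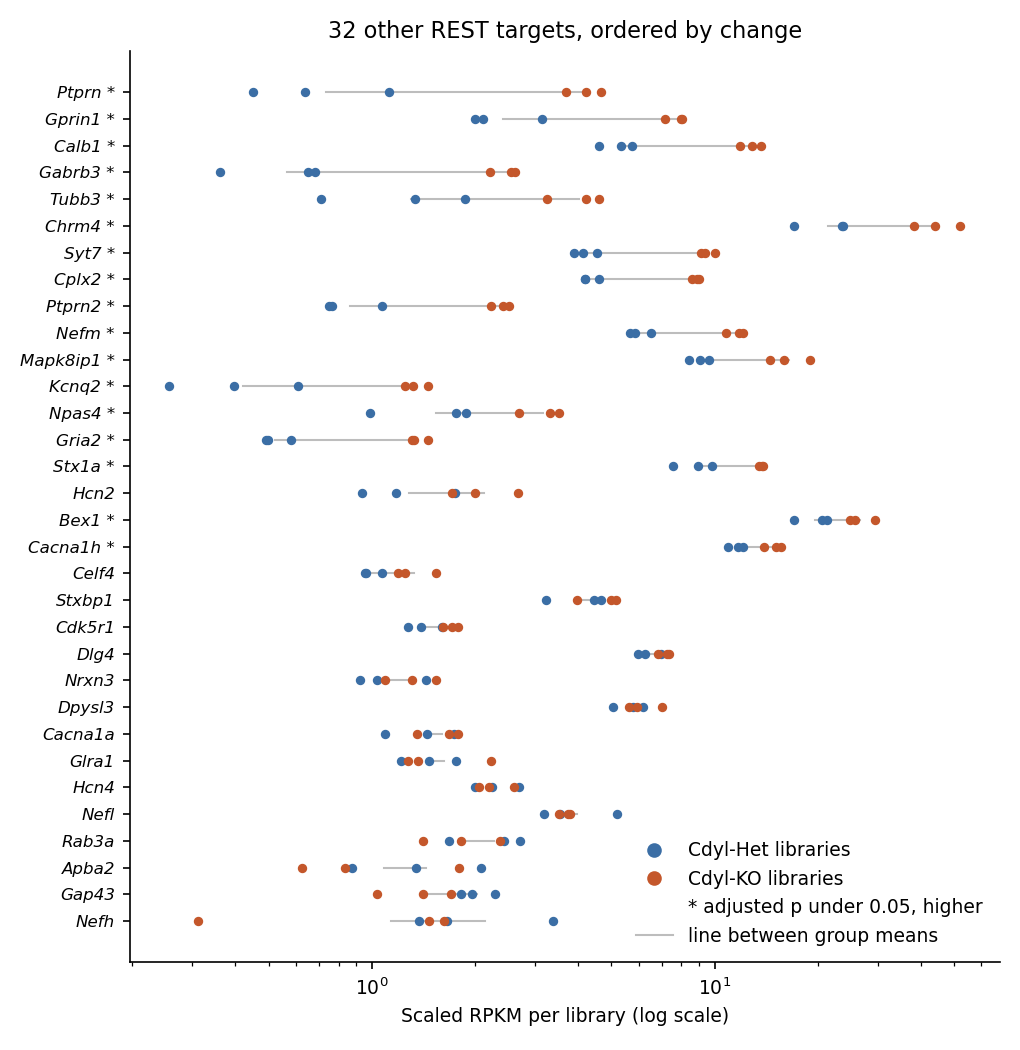
Scaled RPKM in each library (x axis, log scale) of the 32 other REST targets, ordered by change, with Cdyl-Het in blue, Cdyl-KO in orange, a grey line between the group means and an asterisk for an adjusted p under 0.05. The 17 genes with an asterisk have all Cdyl-KO points to the right of the Cdyl-Het points.

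Of the 32, 16 had a promoter window, and an RE1-like core with up to 2 mismatches was found in those of Gria2 and Chrm4. Both sites lie on the strand opposite to the gene. They are shown beside the sites of Syn1 and Celsr3 for comparison, written on the strand of the match, with capitals for the letters that equal the core and with 2 bases before and 4 after it.
Syn1, chrX:20921130-20921150, 1 mismatch, from -230: ttCAGCACCgcGGtCAGagcc
Celsr3, chr9:108825918-108825938, 1 mismatch, from -125: ttCAGCACCgtGGgCAGcact
Gria2, chr3:80802989-80803009, 1 mismatch, from -170: tttAGCACCgcGGACAGcgct
Chrm4, chr2:91921975-91921995, 2 mismatches, from -210: tcCAGCACCgaGGgCAccgcc
Gria2, an AMPA receptor subunit, rose from 0.523 ± 0.0503 to 1.36 ± 0.0788 scaled RPKM (SD, n = 3 each, log2 change 0.63, limma adjusted p = 0.0252), a call lost in each of the 6 fits without 1 library (adjusted p from 0.0653 to 0.0942). Chrm4, a muscarinic receptor, rose from 21.4 ± 3.80 to 44.8 ± 6.91 (log2 change 1.03, limma adjusted p = 0.0126). Over the 8593 genes of the tables with a window, 20 held a core with up to 1 mismatch, and 7 of these (35%) rose, among them Syn1, Celsr3 and Gria2, while 1 fell. Of the 20, 4 had a Cdyl-Het mean under 1, Syn1, Celsr3 and Gria2 included, and all 4 are among the 7, beside the 25.8% of such genes given above. With up to 2 mismatches 20 of 218 genes rose (9.17%) and 7 fell (3.21%), with up to 3 mismatches 96 of 1618 rose (5.93%) and 60 fell (3.71%), and of all 8593 genes 387 rose (4.50%) and 228 fell (2.65%). The median log2 change was 0.02 at up to 1 mismatch and 0.00 in the wider classes. The only exact cores were those of Ogdhl, which rose, and Lca5, which fell. At up to 3 mismatches a core was held by 24.8% of the genes that rose and 26.3% of those that fell, beside 18.8% of all 8593 genes. These shares are descriptions, and the share with a match is higher the more mismatches are allowed. It was 57, 599 and 4509 of the 27025 genes with a window at up to 1, 2 and 3 mismatches.

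The genes of REST and its partners are transcribed by these cells, and all 26 on the list had values. Rest had 26.4, 26.6 and 27.0 scaled RPKM in Cdyl-Het against 31.8, 30.9 and 30.1 in Cdyl-KO (log2 change 0.21, limma adjusted p = 0.0447). Ehmt2 (G9a), Phf21a, Ctdsp1 and Ctdsp2 also passed, with log2 changes of 0.23 to 0.28 (limma adjusted p = 0.0247 to 0.0478). So 5 of the 26 were higher and none lower, beside 4.67% and 2.83% of all genes. These 5 calls depended on the scaling and the libraries: on unscaled values none was higher and 4 genes of the list were lower, and leaving out any 1 library left none. Rcor1, Kdm1a, Ehmt1 and Cdyl2 did not pass (log2 changes 0.14, 0.09, 0.04 and -0.01, limma adjusted p from 0.252 to 0.963).

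Markers of other cells were counted because the 9 genes are also expressed by neurons and chromaffin-lineage cells. Of 26 markers of neurons and neural crest cells, 7 had values and the other 19, among them Sox10, Th and Dbh, were not analysed here. Tubb3 (1.30 ± 0.582 to 4.02 ± 0.707, SD, n = 3 each, limma adjusted p = 0.0195) and Nefm rose. The Tubb3 call was lost in limma without Cdyl-KO replicate 2 (adjusted p = 0.0624) or 3 (0.0604). Gata3, Hand2, Ngfr, Gap43 and Nefl did not pass, and Ngfr and Gap43 had log2 changes of -0.29 and -0.35. Ngfr is the mouse gene of CD271, the protein whose human form tags the cells of all libraries. Whether reads of the tag add to the Ngfr value was not tested, so Ngfr is a weak marker here. Of the 7, Tubb3, Nefm, Nefl and Gap43, are on the wider list of REST targets as well. The summed level of the 7 was 33.2 to 38.9 scaled RPKM in Cdyl-Het and 36.8 to 41.6 in Cdyl-KO, ranges that overlap. Ngfr was the largest part of this sum in every library. It had 15.2, 15.5 and 17.6 scaled RPKM in Cdyl-Het against 12.9, 14.0 and 12.1 in Cdyl-KO, so the sum mostly follows Ngfr and Nefm, which moved in opposite directions. Endothelial markers summed to 29.2 to 32.3 in Cdyl-Het and 19.1 to 21.3 in Cdyl-KO, and 3 of 7 fell (Cdh5, Kdr and Tek). Of 13 blood markers 6 had values and none passed, and their summed level was uneven within both groups (51.5 to 261 in Cdyl-Het, 55.1 to 162 in Cdyl-KO). Of 9 mesonephros markers 7 had values and 1, Pax8, rose (log2 change 0.40, limma adjusted p = 0.0227), with summed levels of 15.1 to 21.4 in Cdyl-Het and 17.3 to 21.6 in Cdyl-KO. Of 10 germ cell markers only Kit had a value, and it did not pass. The part of these cells in the values of the 9 genes was not tested.

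By profile, the 5 genes nearest to Stmn3 were Mapk8ip2, Crmp1, Soga3, Sez6l2 and Vstm2l, by the root mean square distance between log2 profiles over the 6 libraries, each centred on its own mean. The distances ran from 0.159 (Mapk8ip2) to 0.256 (Vstm2l). Mapk8ip2, a scaffold of the JNK pathway, had 0.631, 0.474 and 0.793 scaled RPKM in Cdyl-Het against 5.76, 5.52 and 5.48 in Cdyl-KO. Crmp1, a collapsin response mediator, went from 2.25 ± 0.483 to 11.0 ± 0.214 (SD, n = 3 each), and Sez6l2 from 1.44 ± 0.223 to 14.0 ± 0.410, with the largest log2 rise of all genes, 2.62. None of the 5 is on the list of 9 or on the wider list. They were picked for a profile like that of Stmn3, so their changes are given without a test.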

How the data were processed

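Total RNA of the 6 libraries was sequenced by the authors after a stranded low-input preparation, per the labels' protocols. STAR, Subread with featureCounts 1.6.4 and the mm10 genome are named in the submitters' processing notes. The strand setting and the step from counts to values are not stated there. What the authors deposited has no stated unit and was taken as RPKM from its form: multiplied by GENCODE M21 exon length, they gave whole reads (tolerance 0.02) for 78.6% to 82.4% of genes per library. GENCODE gave 1 gene for 98.3% of symbols.

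RPKM values were divided by a trimmed-mean factor per library (0.928 to 1.06, against the first library). The log2 of the scaled value plus a pseudocount of 1 was fitted with limma 3.58.1 in R 4.3.3, on group alone with a trended spread. Benjamini-Hochberg adjustment ran over all 11736 genes, and the threshold was 0.05. A log2 change understates the change of low genes. Scaling moved the median log2 change of all genes from -0.12 to 0.00. Ratios between 2 genes were compared by exact permutation, which was not a planned test. Such a ratio restates the values of its 2 genes and is no separate support for their calls.

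The 9 genes and all lists were chosen with earlier results of these data known. Genes named beside the 9 follow a rule: of the wider list of targets the 6 with the smallest p and the 2 highest that did not pass, core REST partners and any partner past the threshold, family members, and the 5 profiles nearest to Stmn3. Gria2, Chrm4, Tubb3, Ogdhl and Lca5 were named after their values were seen. Alternatives were 14 planned settings and voom on the implied reads, added after seeing the data.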

Additional observations from a re-analysis of the deposited data

How the results depend on the processing

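Over the alternatives, none of the 9 genes changed direction, and Stmn3 (log2 change 2.16 to 3.08), Syn1 and Kcnh2 passed in every setting that tested them. Values of low genes rest on few reads, 36 to 78 for Stmn3 in Cdyl-Het, and a filter at a mean of 2 tested 4 of the 9 genes, with 3 higher. The count of genes called, 880, was 1863 on unscaled values, 253 to 647 without 1 library and 1724 in voom on the implied reads (chosen after seeing the data), which called 7 of the 9 higher and 1 lower (Chgb). Without 1 library, 3 to 5 of the 9 genes were higher (3 without Cdyl-KO replicate 2 or 3), and 11 to 12 of the 32 other targets were (11 without Cdyl-KO replicate 3), against 17. The labels do not state whether equal replicate numbers mark a shared litter or day. The values gave no sign of pairing, which 3 libraries per group cannot settle. Correlations of same-numbered deviations were -0.05, -0.27 and -0.05, and no Cdyl-KO library correlated best with its own number. With the number as a replicate block, 337 genes were called, with 4 of the 9 higher (Celsr3 adjusted p = 0.0696) and 10 of the 32. Up to 1 mismatch, 1 of the other targets and 57 of all genes with a window held an RE1-like core. Up to 3 mismatches, 4509 of all genes with a window did. The cause of these differences was not tested.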
